A study of Homo sapiens with 4 samples.

Results

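The Hippo pathway genes described here are 9 genes: the kinases STK4, LATS1 and LATS2, the co-activators YAP1 and WWTR1, their DNA-binding partner TEAD1, the scaffold AMOTL2, and the target genes CCN1 and CCN2. N6-methyladenosine (m6A), a methylated base of messenger RNA, had been mapped by MeRIP-seq, in which RNA fragments bound by an m6A antibody (IP) are sequenced beside unselected RNA (input). The cells were 16-HBE, an established human bronchial epithelial line. One condition, labelled WT, received 5% cigarette smoke extract (CSE) for 24 h, and the other received the same exposure together with siRNA against METTL3, the catalytic subunit of the m6A methyltransferase. The labels name no unexposed cells and no control siRNA, so loss of METTL3 and siRNA treatment as such cannot be told apart. Each condition had an IP and an input library and is represented by 1 deposited list of enriched intervals. The design text states 3 replicates per condition, so any spread between them is not in the values below, and differences are between these 2 lists.

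The genes were chosen by what these same lists hold for them, so their interval numbers, overlaps and scores are a description and carry no test. An interval was a member when it overlapped 1 of 9 hg19 windows drawn around the genes, on the strand of the gene. This gave 22 of the 11038 intervals of the CSE list and 18 of the 13691 intervals of the knockdown list, at 25 distinct positions. Of the 9 genes, 7 had an interval in CSE and 6 with knockdown. The target part of the group is therefore empty: CCN1 and CCN2 had no listed interval in either condition. The lists hold no expression values, so neither the bronchial cell type nor the reduction of METTL3 could be checked in them.

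In the Hippo pathway, STK4 (also called MST1) activates the LATS kinases, and these phosphorylate YAP1 and WWTR1 (also called TAZ), which keeps them out of the nucleus or sends them for degradation. Unphosphorylated YAP1 and WWTR1 enter the nucleus, bind TEAD factors and switch on genes such as CCN1 and CCN2, which encode matricellular proteins. AMOTL2 is a junction-associated protein that binds YAP1 and restrains it. In airway epithelium the pathway is known for its part in the growth and differentiation of basal cells. METTL3 methylates adenosines within a short consensus, and m6A in mRNA is known to be concentrated in long internal exons and around stop codons.

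Most member intervals had the length of an exon. The files give positions on hg19, while the annotation used here, GENCODE 29, is on GRCh38, so lengths and distances within a gene were compared and no position was carried between builds. Of the 25 positions, 16 had exactly the length of an exon of 1 transcript of their gene, and another had the length of an exon of a second LATS1 transcript. In 5 genes, holding 15 of the 16, the distances between matched intervals also equalled those between the exons. A further 6 positions shared 1 exon border by the same spacing, and 2 matched no exon, the TEAD1 interval and 1 of the AMOTL2 intervals. TEAD1 had no length match to give a spacing, so its borders could not be checked. For AMOTL2 that check rested on 1 length match. Of the 16 exons, 15 were coding over their whole length. For the 17 positions of exon length the borders thus describe exons, and where within an exon the m6A lies cannot be read from them.

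The exons at which the conditions differed, and whose length allows printing, are shown first. The sequences are those of the GENCODE 29 transcripts, read 5′ to 3′ on the RNA strand with T for U, and their identity with hg19 was not checked. Capitals mark 5-letter words of the m6A consensus, for which 12 words were searched on the transcript strand, overlaps included. Each word begins with AA, with AG, with GA or with GG, continues with AC, and ends in A, in C or in T. The wider form of the consensus, in which the first letter may also be T, was not searched. A word is a description and not a methylated site. STK4 exon 9 corresponds to the interval chr20:43629808-43629994 (hg19, plus strand), AMOTL2 exon 6 to chr3:134080354-134080649 (minus strand), and YAP1 exon 5 to chr11:102076624-102076817 (plus strand).
STK4 exon 9, listed in CSE and not with knockdown: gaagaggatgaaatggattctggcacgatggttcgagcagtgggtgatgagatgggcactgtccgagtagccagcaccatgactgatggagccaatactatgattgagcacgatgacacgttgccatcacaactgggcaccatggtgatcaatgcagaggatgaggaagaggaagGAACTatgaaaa
AMOTL2 exon 6, listed in CSE and not with knockdown: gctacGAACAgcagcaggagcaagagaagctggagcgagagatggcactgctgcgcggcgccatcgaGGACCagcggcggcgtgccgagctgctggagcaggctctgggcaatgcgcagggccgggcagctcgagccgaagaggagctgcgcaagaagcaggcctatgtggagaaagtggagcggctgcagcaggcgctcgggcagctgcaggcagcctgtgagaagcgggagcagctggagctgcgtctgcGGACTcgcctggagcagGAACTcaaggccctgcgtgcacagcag
YAP1 exon 5, listed with knockdown and not in CSE: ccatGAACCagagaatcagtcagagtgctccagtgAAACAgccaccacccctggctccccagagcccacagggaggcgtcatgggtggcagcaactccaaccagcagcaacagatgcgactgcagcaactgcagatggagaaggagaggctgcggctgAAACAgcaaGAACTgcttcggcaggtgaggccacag

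The STK4 exon held 1 of the 12 words, GAACT, and none of the 3 words that begin with GGAC. It also holds TGACT and TGACA, words of the wider form that was not searched. Among 429 wholly coding internal exons of 187 nt in GENCODE 29, 93.5% held at least 1 of the 12 words and 48.3% held a word beginning with GGAC. The AMOTL2 exon held 4 words, 2 of them beginning with GGAC. Of 28 such exons of 296 nt, 89.3% held a word and 71.4% one beginning with GGAC. The YAP1 exon held 4 words and none beginning with GGAC, beside 94.7% of 374 exons of 194 nt with any word and 56.7% with one of the GGAC words. All 16 matched exons held at least 1 of the 12 words, and 9 held a GGAC word. Among wholly coding internal exons of the same lengths, the GGAC share ran from 36.2% at 113 nt to 100% at 583 and 1424 nt. Only 4 and 2 exons had those 2 longer lengths. The 9 of 16 is therefore not read as a trait of the members. Most exons of the 3 printed lengths hold a word, so the presence of one is common to exons of this size.

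Fewer intervals were listed in these genes with METTL3 knockdown than without it, 18 against 22, a ratio of 0.82, while the whole lists had a ratio of 1.24. The covered length was 9.22 kb with knockdown and 10.8 kb in CSE, a ratio of 0.85 beside 1.09 for the whole lists. By gene, 4 had fewer intervals with knockdown (STK4, LATS1, TEAD1 and AMOTL2), 1 had more (YAP1), 2 had equal numbers (WWTR1 and LATS2), and 2 had none. The direction depended on intervals with scores under 100, of which CSE had 5 and the knockdown 0. The scale of the score is not stated, so 100 may not mean the same in both lists. At scores of at least 100 there were 17 of 22 in CSE and 18 of 18 with knockdown. In the whole lists 8341 of 11038 CSE intervals and 10825 of 13691 knockdown intervals reached that score. Among intervals at or above the median score of their list there were 13 and 14 members, beside 5519 and 6846 intervals of the whole lists. The direction of the member difference thus turned under both limits. The whole lists kept more intervals with knockdown at the limit of 100. At the median limit their direction could not turn, since each list was cut at its own median.

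**Figure D1:**
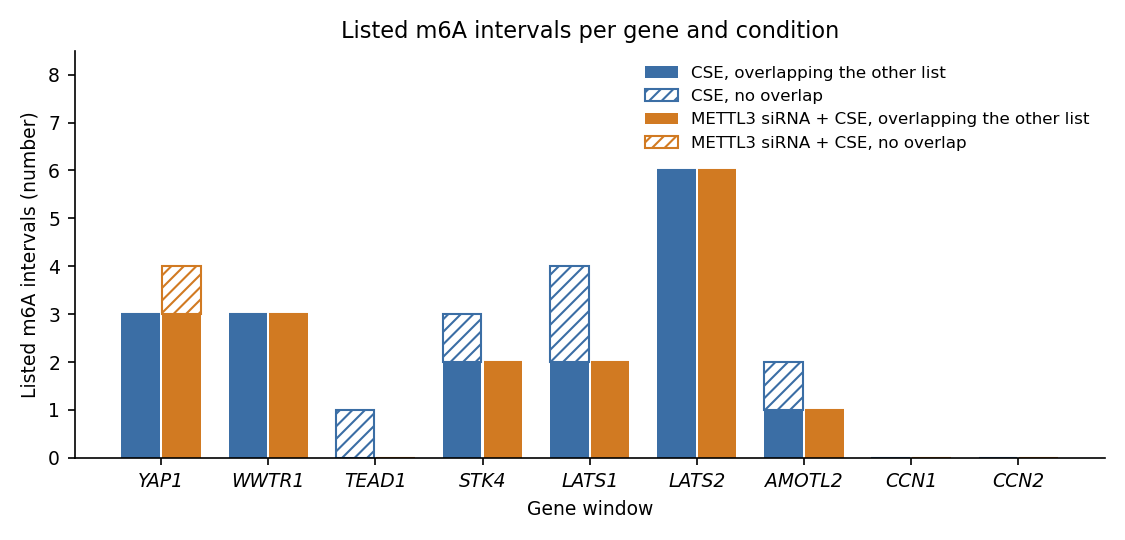
Bars give the number of listed m6A intervals in each gene window for CSE and for METTL3 siRNA with CSE; filled parts overlap an interval of the other list and hatched parts do not. LATS2 has 6 in both conditions, LATS1 has 4 in CSE and 2 with knockdown, YAP1 has 3 and 4, and CCN1 and CCN2 have none.

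Most member intervals were listed in both conditions. Intervals were compared by position, and at least 1 bp on the same strand counted as overlap. In CSE 5 of 22 members had no overlap with the knockdown list, a share of 22.7%, beside 19.9% of the whole CSE list. With knockdown 1 of 18 had no overlap with the CSE list, 5.6%, beside 35.5% of the whole knockdown list. No test was made of these shares, since the genes were chosen from the same lists. That count moved when a score limit was applied to both lists. At scores of at least 100 it was 5 of 18, beside 37.6% of all knockdown intervals at that limit. Only 1 of these, YAP1 exon 5, had no overlap in the full CSE list. The others had CSE counterparts with identical borders and scores under 100, which the limit removed. These scores were 50.25 (YAP1 exon 2), 61.5 and 87.5 (LATS2 exons 1 and 3) and 71.3 (AMOTL2). At or above the median score of each list the count was 3 of 14, beside 35.6%. In CSE the counts under these limits were 4 of 17, beside 19.1%, and 2 of 13, beside 20.1%. Where only identical borders counted as overlap, 7 of 22 CSE members were without a counterpart, beside 34.2%, and 3 of 18 knockdown members, beside 47.0%. Intervals of 1 gene share a transcript and are not independent. Of the 17 overlapping members of each list, 15 had the same start and end in both lists. Over the whole lists 65.8% of CSE and 53.0% of knockdown intervals had such a counterpart, or 82.1% of the overlapping intervals of either list.

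Each interval carries the authors' own score, whose scale is not stated. The lowest score is 50.02 in both lists, and many values equal 3100. They are used here to place an interval within its own list, and no change between conditions is read from them. The median score of all intervals was 224 for CSE and 280 for knockdown. Of the members, 13 of 22 in CSE and 14 of 18 with knockdown lay at or above the median of their list. Scores of 3100 or more were found for 5 CSE members, where 5.98% of the whole list reached them, and for 4 knockdown members, where 8.55% did. They belonged to STK4, LATS1 and LATS2, and no interval of YAP1, WWTR1, TEAD1 or AMOTL2 scored above 1338.

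**Figure D2:**
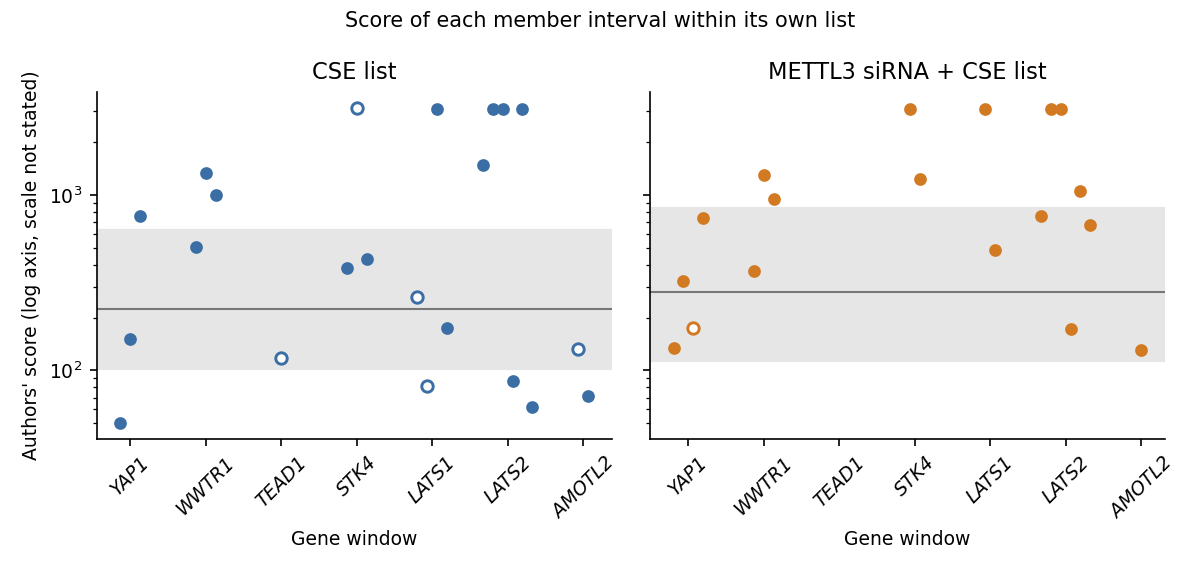
Each point is 1 member interval with its score on a log axis, the CSE list on the left and the METTL3 siRNA with CSE list on the right, in order of position within a gene; open points have no overlap in the other list. The line and grey band are the median and quartiles of the whole list. Of the open points, only that of STK4 lies at the top of its list, and the TEAD1 column is empty on the right.

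STK4, the upstream kinase, carried the highest-scoring member. Its 187 nt exon 9 interval scored 3134 in CSE, rank 33 among 11038 intervals, and no knockdown interval overlapped it. The nearest knockdown interval ended 175 nt upstream. It began at the 5′ border of exon 8, as its CSE counterpart did, but the pair differed in length: chr20:43629033-43629525 in CSE (493 nt, score 383) and chr20:43629033-43629632 with knockdown (600 nt, score 3100). Exon 8 is 129 nt long in the annotation, so the interval ran 364 nt beyond it in CSE and 471 nt with knockdown. In CSE exons 8 and 9 each had an interval. With knockdown the exon 8 interval was 107 nt longer and still ended before exon 9. Exon 10 (chr20:43653614-43653771, 158 nt) was listed in both with identical borders, with scores of 433 in CSE and 1239 with knockdown. The running numbers in the interval names left 1 number unlisted between the knockdown intervals on either side of exon 9. If these numbers count calls, 1 unlisted call may lie there.

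LATS1 and LATS2 are paralogous kinases that phosphorylate YAP1 and WWTR1. LATS2 had 6 intervals in each condition, the most of the 9 genes, and LATS1 had 4 in CSE and 2 with knockdown. Both genes were listed at exons 3, 4 and 5 in CSE. Exon 4, the longest of their internal exons, scored 3100 in both genes and both conditions. In LATS1 it was chr6:150004055-150005728 (minus strand, 1674 nt), the length of an exon of an alternative LATS1 transcript, and in LATS2 chr13:21562020-21563443 (minus strand, 1424 nt). Exon 3 was listed in both genes and both conditions as well. Its scores were 176 in CSE and 483 with knockdown for the 148 nt of LATS1, and 87.5 and 173 for the 133 nt of LATS2. Exons 6 and 7 are 183 and 107 nt long in each of the paralogs, and neither was listed in either condition.

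Exon 5 was listed differently in the paralogs. It is 583 nt long and wholly coding in both genes. In LATS2 (chr13:21557363-21557945) it was listed in both conditions with a score of 3100. In LATS1 (chr6:150001011-150001593) it was listed in CSE alone, with a score of 81.5 that exceeded or equalled 18.0% of that list, and the nearest knockdown interval was 2461 nt away. Aligned without gaps, the exons were identical at 429 of 583 bases, or 73.6%. LATS1 exon 5 held 8 of the consensus words, 4 of them beginning with GGAC, and LATS2 exon 5 held 16, of which 7 began with GGAC. At 6 places both held a word. GC content was 37.4% in LATS1 and 50.8% in LATS2. Whether these sequence differences bear on the listing was not tested. The first 150 bases of the exons are printed to show the paralogs side by side, with the words in capitals.
LATS1 exon 5, bases 1 to 150: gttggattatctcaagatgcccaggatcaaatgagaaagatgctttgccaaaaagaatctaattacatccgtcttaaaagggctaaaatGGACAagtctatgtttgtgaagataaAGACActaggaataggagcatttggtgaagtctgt
LATS2 exon 5, bases 1 to 150: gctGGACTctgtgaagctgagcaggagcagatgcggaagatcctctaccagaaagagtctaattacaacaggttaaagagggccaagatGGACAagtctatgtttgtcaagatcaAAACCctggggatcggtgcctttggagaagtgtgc
Here LATS2 has a GGAC word at base 4 where LATS1 has none, and both have GGACA at base 90 and a word at base 116.

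**Figure D3:**
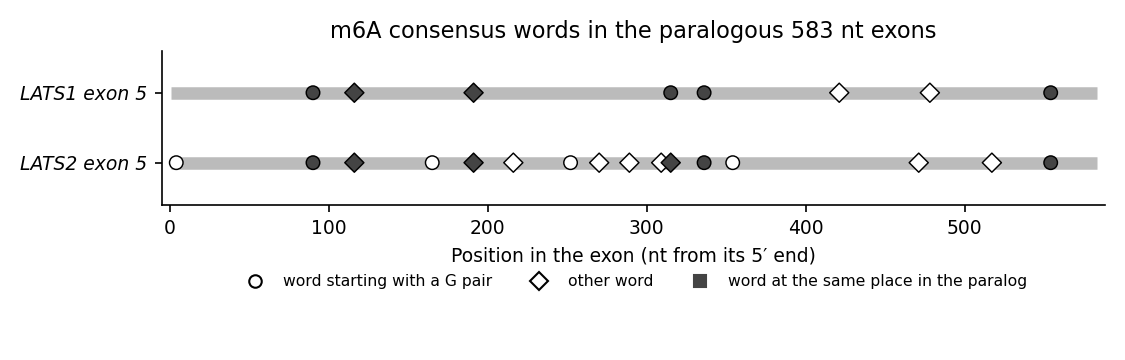
Symbols mark where the 12 consensus words start along exon 5 of LATS1 and LATS2, in nt from the 5′ end of the exon; circles are words beginning with GGAC, diamonds the others, and dark symbols have a word at the same place in the paralog. LATS1 has 8 and LATS2 has 16, with 6 places in common.

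The ends of the LATS transcripts differed too. The last exon of LATS1 was listed in CSE alone, at chr6:149982688-149983374 (687 nt, score 261). By its shared 5′ border this interval spans 507 coding bases and 180 bases beyond them, so it includes the stop codon and the start of the 3′ UTR. No knockdown interval lay within 20680 nt of it on its strand, and 2 running numbers were unlisted in the knockdown list across this stretch, the same 2 as for exon 5. The last exon of LATS2 was listed in both conditions with the same 5′ border. It ran over 2041 nt in CSE (chr13:21547463-21549503, score 1475) and 2328 nt with knockdown (chr13:21547176-21549503, score 756), 287 nt further into the 3′ UTR. Of these, 492 bases were coding. Among the intervals that could be matched to an exon, LATS2 alone had one at exon 1. The TEAD1 interval and 1 AMOTL2 interval were not placed on any exon. Exon 2 (chr13:21619824-21620369, 546 nt, of which 204 are 5′ UTR) scored 3100 in CSE and 1051 with knockdown. An interval of 238 nt sharing the 3′ border of the non-coding exon 1 (chr13:21635485-21635722) scored 61.5 in CSE and 672 with knockdown.

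YAP1, the co-activator restrained by the kinases, was the 1 gene with an additional interval after knockdown. Exons 2, 3 and 8 were listed under both conditions, with borders identical to the base. Exon 2 (chr11:101984875-101985125, 251 nt) was close to the minimum of the CSE list, with a score of 50.25, and scored 134 in the knockdown list. Exon 3 (chr11:102033187-102033302, 116 nt) scored 150 in CSE and 321 with knockdown, and exon 8 (chr11:102098200-102098312, 113 nt) 756 and 742. The interval found with knockdown alone was exon 5 in its 194 nt form, with a score of 175, which exceeded or equalled 37.2% of that list. Of the protein-coding YAP1 transcripts in GENCODE 29, 5 have an exon of that length. The nearest CSE interval was 21382 nt away, and 2 numbers were unlisted in the CSE list between its neighbours.

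WWTR1, the paralog of YAP1, was listed identically in both conditions. Its 3 intervals had the lengths of the consecutive coding exons 4, 5 and 6. Exon 4 (chr3:149290651-149290787, 137 nt) scored 994 in CSE and 949 with knockdown. Exon 5 (chr3:149260122-149260324, 203 nt) had the highest score of the gene in both lists, 1338 and 1297. Exon 6 (chr3:149245623-149245756, 134 nt) scored 506 and 371. All 3 were above the median of their list, and none of these exons held a word beginning with GGAC. Of wholly coding internal exons of 137, 203 and 134 nt, 44.5%, 58.3% and 41.6% held one, so its absence is common. No number was unlisted between the 3 WWTR1 intervals in either list. In YAP1, by contrast, the listed exons 2 and 3 were separated from exon 8 by unlisted exons in both conditions.

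TEAD1, the DNA-binding partner, had a single interval, in CSE alone: chr11:12695969-12696381 (plus strand, 413 nt) with a score of 118. It matched no exon length of TEAD1, and the nearest knockdown interval on its strand was 315277 nt away. Between the knockdown intervals that flank the TEAD1 window, 15 numbers were unlisted. AMOTL2 had 2 intervals in CSE and 1 with knockdown. The interval in common (chr3:134093184-134093427, minus strand, 244 nt) scored 71.3 in CSE and 130 with knockdown, and matched no exon length. The exon 6 interval of 296 nt, printed above, was listed in CSE alone with a score of 132, and rests on length alone, since no second match in the gene allowed a check of spacing.

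**Figure D4:**
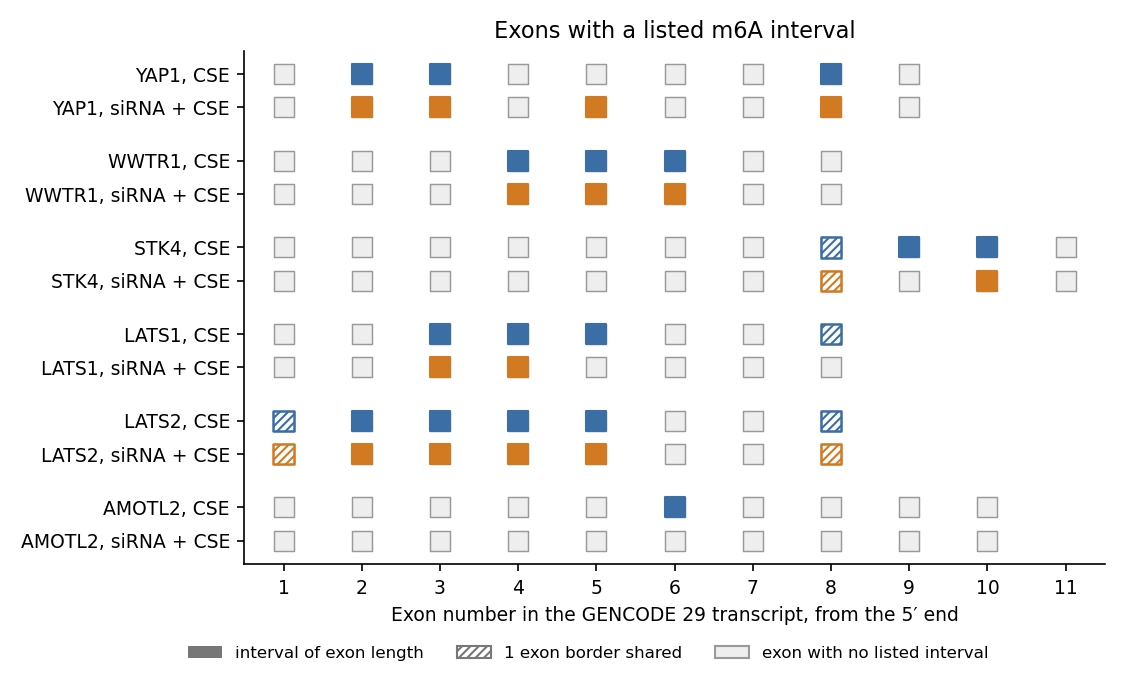
Squares are the exons of 1 GENCODE 29 transcript per gene, numbered from the 5′ end; coloured squares have a listed interval of exon length (for LATS1 exon 4, of the length it has in an alternative transcript), hatched ones an interval sharing 1 exon border. TEAD1, CCN1, CCN2 and the unmatched AMOTL2 interval are not drawn. LATS1 exons 5 and 8, STK4 exon 9 and AMOTL2 exon 6 are marked in CSE alone, and YAP1 exon 5 with knockdown alone.

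Along the transcripts, the exons matched by an interval were mostly internal. The TEAD1 interval and the AMOTL2 interval that matched no exon are not counted here. They lay 968 and 1573 nt inside the window edge at the 5′ end of their gene. The last exon, which holds the stop codon and the 3′ UTR, was matched by an interval in 2 of the 9 genes in CSE and in 1 with knockdown. Of the 9, CCN1 and CCN2 had no interval to match, and TEAD1 none that could be checked. It was not matched for YAP1, WWTR1 or STK4, whose last exons are 3722, 3755 and 4942 nt long in the transcripts used. Of the exons of its transcript, LATS2 had 6 of 8 listed in each condition, more than any other member. LATS1 had 4 of 8 in CSE and 2 with knockdown, WWTR1 3 of 8 in both, YAP1 3 and 4 of 9, and STK4 3 and 2 of 11. Among the members, 9 of 22 CSE intervals were wider than 300 nt, beside 48.9% of that list, and 6 of 18 knockdown intervals, beside 41.4%. The median widths were 247.5 nt in CSE and 220.5 nt with knockdown.

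CCN1 and CCN2, the classical YAP targets, had no interval in either list. For CCN1 the nearest listed interval on its strand lay 870.8 kb from the window in CSE and 841.0 kb with knockdown. Between the intervals of either strand that flank the window, 10 numbers were unlisted in each list, and where these lie is not known. For CCN2 the distances were 339.8 and 319.6 kb, and 1 number in CSE and 3 with knockdown were unlisted between the flanking intervals. An unlisted gene is not shown to lack m6A, because the transcript levels and the read depth are not in these lists and most running numbers are missing from them. The other windows were well separated from their surroundings. The closest interval outside a window on its strand was 24.9 kb away, at LATS1 in the knockdown list (score 74.5), and the closest inside lay 175 nt from the edge, at the 3′ end of LATS2 in the knockdown list (score 756).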

How the data were processed

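Per the labels, poly(A) RNA of 16-HBE cells was precipitated with an m6A antibody and sequenced beside input, 4 samples in all. The submitters' processing notes name HISAT2 2.0.4 and the build hg19. Interval names begin with MACS, per the deposited files, but the sources used here do not give the caller's settings or say whether replicates were pooled. The deposited lists hold 22.1% (CSE) and 28.0% (knockdown) of the running numbers in their names. The score is the authors' own value per interval as deposited, on an unstated scale. Read depth was not used here.

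Positions are printed counting from 1. Members were taken by window and strand, and all 9 genes are named. Overlap needed 1 bp on the same strand. Exon lengths came from GENCODE 29 protein-coding transcripts, per gene the one with most intervals matched. That step and the word search were chosen after seeing the data. The overlap code was tested on simulated data. Members and lists were chosen with earlier results of these data known. Other Hippo genes could not be placed without hg19 annotation and were not analysed here. Python 3.11.15, pandas 2.3.3 and SciPy 1.17.1 were used.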

Additional observations from a re-analysis of the deposited data

How the results depend on the processing

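With 1 list per condition, no replicate could be left out. No paired analysis was possible because the result comes from no test. Of 26 values on the whole group under alternatives, 19 stayed close to the reported count (a ratio of at most 1.5) or within its counting error, 5 moved and 2 reversed. The difference in intervals, knockdown minus CSE, was -4 and became 1 at scores of at least 100 and 1 in the upper 50% of each list. The minimum removed 5 members from CSE and 0 from knockdown. Of those removed, only LATS1 exon 5 (score 81.5) had no overlap in the knockdown list. The others, at YAP1 exon 2, LATS2 exons 1 and 3 and in AMOTL2, had knockdown counterparts with identical borders. Those counterparts scored from 130 to 672 and were kept. The cause was not tested. Where both lists were held to scores of at least 100, members with no overlap numbered 5 with knockdown, beside 37.6% of all its intervals. In the upper 50% of each list they numbered 3 with knockdown, beside 35.6%, and 2 of 13 in CSE, beside 20.1%. With identical borders required they numbered 3 with knockdown, beside 47.0%. Reading both strands, or intervals wholly inside the windows, left the counts of every gene as they were. Of 72 counts per gene, 65 stayed within that ratio, and the 7 that moved did so under a score limit. Counts of 0 could not move under a score limit, so the 65 include counts that were fixed in advance.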
